A study of Rattus norvegicus and Bos taurus with 12 samples.

Results

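The sarcomeric, smooth muscle and non-muscle myosin chains of the heart were followed by gene symbol, as 5 heavy chain genes (Myh6, Myh7, Myh9, Myh10 and Myh11) and 5 light chain genes (Myl2, Myl3, Myl4, Myl7 and Myl9). Of these 10 genes, 8 were among the 7052 genes listed for rat myocytes and 1, MYH11, was among the 2115 genes listed for bovine fibroblasts, out of 9167 listed rows in all. Myh10 and Myl9 were listed in neither table. Both tables hold genes that had been selected for a difference between the groups compared, so a gene that is not listed is not shown to be unchanged.

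RNA of 12 libraries was sequenced, 3 in each of 4 groups. Adult rat ventricular myocytes (ARVM) of Sprague Dawley rats were either untreated controls (libraries con4, con5 and con6), which the study's methods describe as freshly isolated, or kept for 7 days in medium conditioned by fibroblasts of calves with pulmonary hypertension (PH-CM, libraries ha2, ha209 and ha211). The bovine cardiac fibroblasts (Cfib) were cultured from the right ventricle of neonatal calves kept in hypobaric hypoxia (PH) or of control calves (CO), both numbered 1 to 3. The paper describes 3 animals in each fibroblast group. The treatment field of the labels differs, naming serum of low-altitude or high-altitude cows for every library. No ARVM cultured without PH-CM were analysed here, so the medium and the time in culture cannot be told apart. Nothing in the labels says that the ARVM libraries came from separate animals, and their p-values may measure technical spread.

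The listed genes held 12122463 to 18842171 reads per ARVM library, and the fewest reads behind a value of a member were the 35 of Myl7 in 1 PH-CM library. ARVM values are normalised read counts, reads divided by 1 size factor per library, and Cfib values are a length-scaled and library-scaled signal of unknown depth. Cardiomyocyte markers were present in both ARVM groups, where 8 of 8 were listed and lower in PH-CM. Their summed level was 1015451 to 1050623 normalised counts in control and 118760.3 to 145076 in PH-CM libraries. The fall was uneven, with log2 fold changes from −6.62 for Mb to −0.66 for Pln. Mb, the highest of them in control, had means of 343002 in control and 3533 in PH-CM. Fibroblast markers (8 of 8 higher) summed to 1427 to 1953 and 86870.3 to 129619 normalised counts, and macrophage markers (7 of 7 higher) to 192 to 293 and 2185 to 3109. Endothelial markers (1 of 7 higher, 6 lower) summed to 8137 to 9986 in control and 3232 to 3728 in PH-CM libraries. No marker of these lists was at 0 in a whole ARVM group, and the part of these shifts in the myosin results was not tested.

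Myosin II is built from a pair of heavy chains, which carry the motor and the coiled-coil tail, and from essential and regulatory light chains that wrap the neck of each motor. The heart selects among isoforms by chamber, age and load. Adult rodent ventricle uses mainly the fast alpha heavy chain (Myh6) with the ventricular light chains, whereas the slow beta heavy chain (Myh7) and the atrial light chains are known from the fetal ventricle and from the stressed heart. Smooth muscle and non-muscle myosins build stress fibres and drive cell shape and migration.

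In ARVM kept in PH-CM, the listed cardiac chains other than Myh7, namely Myh6, Myl2, Myl3, Myl4 and Myl7, were lower and Myh7, Myh9 and Myh11 were higher. All 8 listed members passed the threshold (limma, adjusted p under 0.05 by Benjamini-Hochberg over the listed genes), 3 higher and 5 lower. The table's selection sets this count, since 97.6% of all listed genes passed, 53.9% higher and 43.7% lower, and the groups did not overlap in 100% of listed genes. All 8 members also passed with an unequal-variance test, with equal library totals, with edgeR and with DESeq2, which called 81.2%, 79.4%, 96.6% and 94.6% of the listed genes. The members' median log2 fold change was −2.98, beside 0.37 over all listed genes. Together the 8 genes took 3.71% to 4.04% of the normalised counts of listed genes in the control libraries and 0.650% to 0.775% in the PH-CM libraries.

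**Figure D1:**
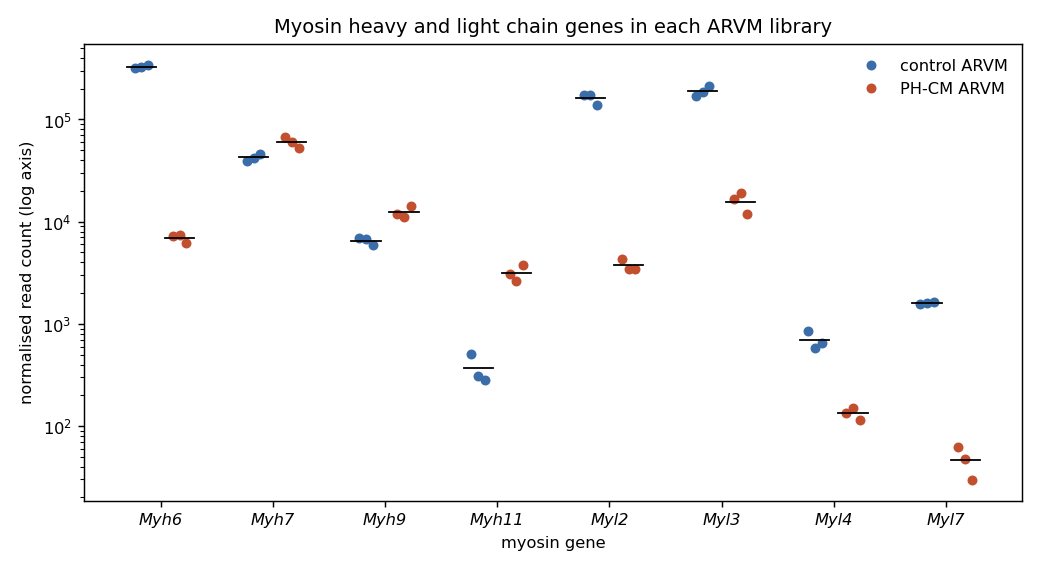
Normalised read counts (log axis) of the 8 listed myosin genes in each ARVM library, with a bar at the mean of each group of 3. Myh6, Myl2, Myl3, Myl4 and Myl7 lie lower in PH-CM and Myh7, Myh9 and Myh11 lie higher, and in no gene do the groups overlap.

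Myh6, the alpha myosin heavy chain of the adult rodent ventricle, had 320263, 323911 and 343020 normalised counts in control libraries con4, con5 and con6 and 7193, 7339 and 6194 in PH-CM libraries ha2, ha209 and ha211. The control libraries lay close to one another, and each was far above each PH-CM library. The mean fell from 329065 ± 12222 to 6909 ± 623 (SD, n = 3), which is 47.6-fold lower, with a log2 fold change of −5.58 on the log2(value + 1) scale (standard error, SE, 0.10, limma adjusted p = 4.37e-08). In bulk RNA, fewer myocytes and less of a transcript per myocyte cannot be told apart, here and for the other cardiac chains.

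Myh7, the beta heavy chain, moved the other way and by little. It had 39629, 42166 and 45527 normalised counts in control and 67204, 59686 and 52783 in PH-CM ARVM. The nearest libraries of the groups, con6 and ha211, were separated by less than the range within PH-CM. From 42441 ± 2958 to 59891 ± 7213 (SD, n = 3) the mean rose 1.41-fold, with a log2 fold change of 0.49 (SE 0.11, limma adjusted p = 0.00411), which stands beside a median of 0.37 over all listed genes.

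With Myh6 47.6-fold lower and Myh7 only 1.41-fold higher, the make-up of the cardiac heavy chain reads was reversed. Myh7 took 11.0%, 11.5% and 11.7% of the Myh6 and Myh7 counts in control and 90.3%, 89.1% and 89.5% in PH-CM ARVM. Their sum was 359892, 366078 and 388546 normalised counts in control and 74398, 67024 and 58977 in PH-CM, so the rise of Myh7 did not make up for the fall of Myh6 in any library. These genes have closely similar coding sequences, and how reads that match both were assigned is not given in the sources used here.

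Myh6 and Myh7 are neighbours on rat chromosome 15, and both carry a microRNA of the miR-208 family within their span, while the related Myh7b on chromosome 3 carries miR-499. These mature arms are shown because they lie within heavy chain genes whose levels are reported here and can be grouped by seed (bases 2 to 8, in capitals). They are RefSeq sequences on GRCr8, which is not the rn6 build of the reads, and lie at chr15:32395568-32395585 (minus strand, within Myh6), chr15:32421648-32421665 (minus strand, within Myh7) and chr3:164570616-164570636 (plus strand, within Myh7b).
rno-miR-208a-3p: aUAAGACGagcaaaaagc
rno-miR-208b-3p: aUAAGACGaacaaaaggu
rno-miR-499-5p: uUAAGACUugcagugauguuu
The 3p arms of miR-208a and miR-208b share the seed UAAGACG, and miR-499-5p has the seed UAAGACU. Another microRNA annotated within Myh6, miR-3546 on the opposite strand, has the seed UAACCCG and is not shown. None of the 3 genes of the microRNAs shown was listed in ARVM, so only the host genes have values. The host of miR-208a fell, the host of miR-208b rose, and the host of miR-499 fell.

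Of the cardiac light chains, all 4 that were listed fell. Myl2, the regulatory light chain of the ventricle, had 173376, 174288 and 139666 normalised counts in control and 4338, 3440 and 3457 in PH-CM ARVM. Con6 was the lowest of its group and was still far above every PH-CM library. The mean fell from 162443 ± 19731 to 3745 ± 513 (SD, n = 3), 43.4-fold lower, and the log2 fold change was −5.44 (SE 0.13, limma adjusted p = 8.87e-08).

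Myl3, the essential light chain of the ventricle and of slow skeletal muscle, had 168764, 184233 and 210551 normalised counts in control and 16484, 18858 and 11877 in PH-CM ARVM. Library ha211 was the lowest library, and the groups were well apart. The mean fell from 187850 ± 21127 to 15739.7 ± 3549 (SD, n = 3), 11.9-fold lower (log2 fold change −3.60, SE 0.18, limma adjusted p = 1.12e-06). The ventricular light chains therefore did not keep step, since the fall of Myl2 was deeper than that of Myl3, although the difference itself was not tested.

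Myl7, the regulatory light chain of the atrium, had 1575, 1587 and 1645 normalised counts in control and 62.0, 47.5 and 29.6 in PH-CM ARVM, the last from 82, 55 and 35 reads. It was the member with the smallest spread in control, with a coefficient of variation of 2.32%, and the widest in PH-CM, with 35.0%. From 1602 ± 37.2 to 46.4 ± 16.2 (SD, n = 3) the mean fell to a level 34.6-fold lower (log2 fold change −5.14, SE 0.25, limma adjusted p = 1.05e-06). Without ha2, its highest PH-CM library, the log2 fold change was −5.38.

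Myl4, the essential light chain of the atrium and of the fetal ventricle, had 853, 578 and 644 normalised counts in control and 135, 151 and 114 in PH-CM ARVM. Con4 was the highest library and the PH-CM libraries lay close together. Its fall was the smallest of the cardiac light chains, from 692 ± 143 to 133 ± 18.4 (SD, n = 3), 5.19-fold lower (log2 fold change −2.36, SE 0.18, limma adjusted p = 1.25e-05). Atrial light chains, which are used in the fetal ventricle, were thus lower and not higher in PH-CM. Of the other atrial markers, 6 of 8 were listed, 2 higher and 4 lower, with a summed level of 10574 to 11002 normalised counts in control and 9620.0 to 12205 in PH-CM libraries. Sln, the atrial regulator sarcolipin, had a log2 fold change of −3.44, whereas Nppa, which encodes atrial natriuretic peptide, had −0.47 and with equal library totals −0.047 (limma adjusted p = 0.791). The 2 higher atrial markers were Dkk3 (0.95) and Nr2f2 (1.40). Nppa and Dkk3 make up most of the summed level and moved in opposite directions. Nppa had means of 7346 in control and 5392 in PH-CM, and Dkk3 of 2736 and 5297.

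Myl3 and Myh9 are the members whose RefSeq promoter entry lies within 50 bases of the outermost start of the gene, and their 250 bases before the annotated start are printed for that reason, 1 for a member that fell and 1 for a member that rose. Of the 10 members, 7 had an entry. Capitals mark matches to MCAT (CATTCC on either strand), the CArG box and the MEF2 box, which are known from muscle promoters, and the last 17 bases of the Myl3 window lie past the outermost gene start. The windows are GRCr8 chr8:119616844-119617093 on the plus strand for Myl3 and chr7:111304964-111305213 on the minus strand for Myh9.
Myl3: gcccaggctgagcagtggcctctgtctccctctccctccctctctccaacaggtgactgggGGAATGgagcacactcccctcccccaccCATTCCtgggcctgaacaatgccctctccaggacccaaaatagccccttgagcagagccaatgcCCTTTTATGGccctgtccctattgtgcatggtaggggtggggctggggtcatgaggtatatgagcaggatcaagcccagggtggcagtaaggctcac
Myh9: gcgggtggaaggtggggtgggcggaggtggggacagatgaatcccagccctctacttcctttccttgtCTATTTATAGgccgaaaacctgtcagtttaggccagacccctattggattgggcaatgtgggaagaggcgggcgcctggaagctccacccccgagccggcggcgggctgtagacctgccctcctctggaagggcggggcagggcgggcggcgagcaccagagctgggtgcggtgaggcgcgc
Counted back from the start, the Myl3 window has MCAT matches at −189 and −161 and a CArG box at −97. The Myh9 window has a MEF2 box at −182, inside which TATAAA matches on the other strand at −179. Over 33469 promoters of this length, 12.1% held an MCAT match, 1.5% a CArG box, 2.96% a MEF2 box and 12.9% TATAAA, both strands searched. CANNTG, left in lower case, occurs in both windows and in 65.5% of promoters. These matches describe the letters of the windows, and no binding was measured.

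Of the members outside the cardiac sarcomere, the listed Myh9 and Myh11 rose. Myh9, the heavy chain of non-muscle myosin IIA, had 6951, 6715 and 5924 normalised counts in control and 12011, 11097 and 14384 in PH-CM ARVM. Each PH-CM library was above each control library, with ha211 the highest. The mean rose 1.91-fold, from 6530.0 ± 538 to 12497 ± 1697 (SD, n = 3), with a log2 fold change of 0.93 (SE 0.11, limma adjusted p = 9.67e-05).

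Myh11, the smooth muscle heavy chain, showed the largest rise among the members. It had 511, 305 and 281 normalised counts in control and 3067, 2625 and 3743 in PH-CM ARVM. Con4 stood above the other control libraries, and the lowest PH-CM library was still well above it. The mean rose 8.60-fold, from 366 ± 126 to 3145 ± 563 (SD, n = 3), with a log2 fold change of 3.14 (SE 0.23, limma adjusted p = 8.66e-06), which was 3.40 without con4.

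Other smooth muscle markers stood beside Myh11. All 8 were listed, 6 higher and 2 lower, with a summed level of 70118 to 77013 normalised counts in control and 80606 to 85598 in PH-CM libraries. Des, the desmin of all muscle types, makes up most of this sum, with a mean of 67582 ± 3576 in control and 45309 ± 5846 in PH-CM (SD, n = 3), while Acta2 had 293 ± 17.5 and 10007 ± 1947 and Tagln 257 ± 47.2 and 21540.1 ± 6688. Acta2, smooth muscle alpha-actin, had a log2 fold change of 5.07, Tagln of 6.35 and Cnn1, calponin, of 6.91, whereas Des had −0.58 and Synm −1.44. Des was not past the threshold with equal library totals (−0.16). Pericyte markers were also mixed (4 of 7 higher, 3 lower), with sums of 6479 to 7251 and 8135 to 9834 normalised counts. The part of smooth muscle cells or pericytes in the Myh11 value was not tested.

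Within PH-CM, library ha211 was the lowest of its group for Myh6, Myh7, Myl3, Myl4 and Myl7 and the highest for Myh9 and Myh11. Myl2 was the exception, with ha209 just under ha211. Leaving out 1 library at a time kept the log2 fold change between −5.62 and −5.50 for Myh6, between 0.41 and 0.58 for Myh7, between 0.83 and 1.01 for Myh9 and between −5.55 and −5.38 for Myl2. No single left-out library could turn a direction, because the groups did not overlap in 100% of listed ARVM genes.

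**Figure D2:**
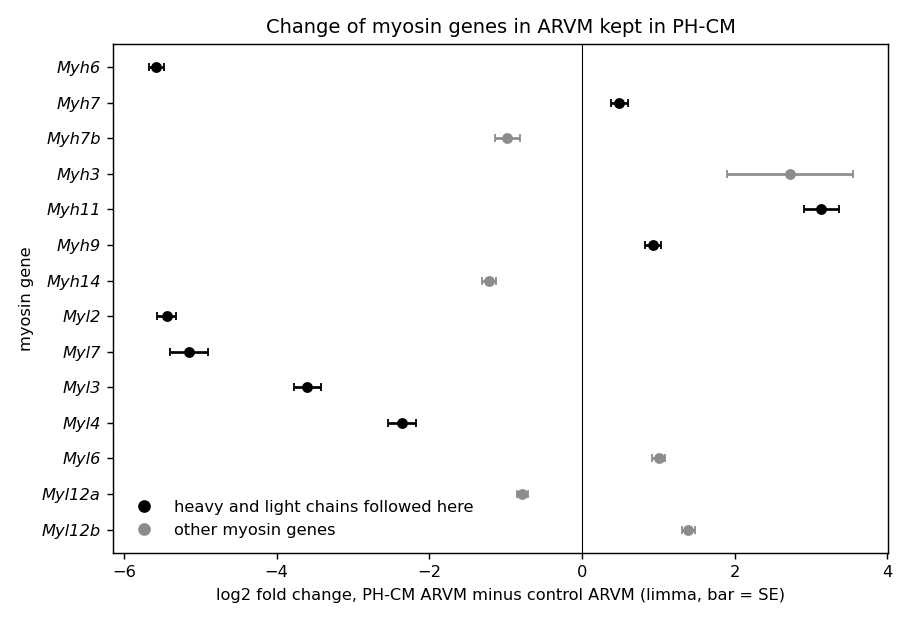
Log2 fold change of PH-CM over control ARVM from limma, with bars of 1 standard error, for the 8 listed members (black) and 6 other listed myosin genes (grey). Myh6, Myl2 and Myl7 sit below −5, Myh11 has the highest value at 3.14, and Myh1, Myh4 and Mylpf, with no or 1 read in control, are not drawn.

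Ratios of isoforms within a library do not depend on library scaling, and the change of a ratio between groups does not depend on gene length. The ratio itself is one of read counts and is not corrected for length. Of 11 pairs chosen, 8 had both genes listed in ARVM and none in Cfib. The groups did not overlap in 7 of the 8, and each of the 7 had a two-sided exact permutation p of 0.1, the smallest that 3 libraries against 3 allow (0.114 adjusted over 8 ratios). No ratio can therefore pass a threshold of 0.05, and the values are given as a description. The groups did not overlap in 100% of the listed ARVM genes. A ratio of genes that moved in opposite directions could therefore not overlap either. This holds for Myh6 to Myh7, Myh6 to Myh9, Myl3 to Myl6 and Myl12b to Myl12a, whose separation was set by the selection of listed genes.

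The ratio of Myh6 to Myh7 was 8.08, 7.68 and 7.53 in control and 0.107, 0.123 and 0.117 in PH-CM ARVM. It was thus above 1 in each control library and below 1 in each PH-CM library, a log2 change of −6.07 (SE 0.07) or 67.2-fold. Against the non-muscle heavy chain, the ratio of Myh6 to Myh9 was 46.1, 48.2 and 57.9 in control and 0.599, 0.661 and 0.431 in PH-CM (log2 change −6.51, SE 0.21). Between the smooth muscle and the non-muscle heavy chain, the ratio of Myh11 to Myh9 was 0.0735, 0.0455 and 0.0474 in control and 0.255, 0.237 and 0.260 in PH-CM (log2 change 2.21, SE 0.23).

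Among light chains, the ratio of the regulatory pair overlapped between the groups. The ratio of ventricular Myl2 to atrial Myl7 was 110, 110 and 84.9 in control and 70.0, 72.5 and 117 in PH-CM ARVM, with overlapping groups and a log2 change of −0.26 (SE 0.27, exact permutation p = 0.4). The essential pair differed more. Ventricular Myl3 over atrial Myl4 was 198, 319 and 327 in control and 122, 125 and 104 in PH-CM (log2 change −1.23, SE 0.25).

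Within the atrial pair, Myl4 over Myl7 was 0.542, 0.364 and 0.391 in control and 2.17, 3.18 and 3.86 in PH-CM ARVM (log2 change 2.81, SE 0.30). Cardiac Myl3 over Myl6, the essential light chain of smooth muscle and non-muscle myosin, was 19.8, 24.2 and 29.4 in control and 1.10, 1.28 and 0.696 in PH-CM (log2 change −4.60, SE 0.31). The closely related regulatory chains Myl12b and Myl12a differed in direction, and their ratio was 0.010, 0.00947 and 0.00920 in control and 0.0397, 0.0443 and 0.0457 in PH-CM (log2 change 2.17, SE 0.07). Myl12b and Myl12a are similar in sequence, so the split of shared reads is uncertain.

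**Figure D3:**
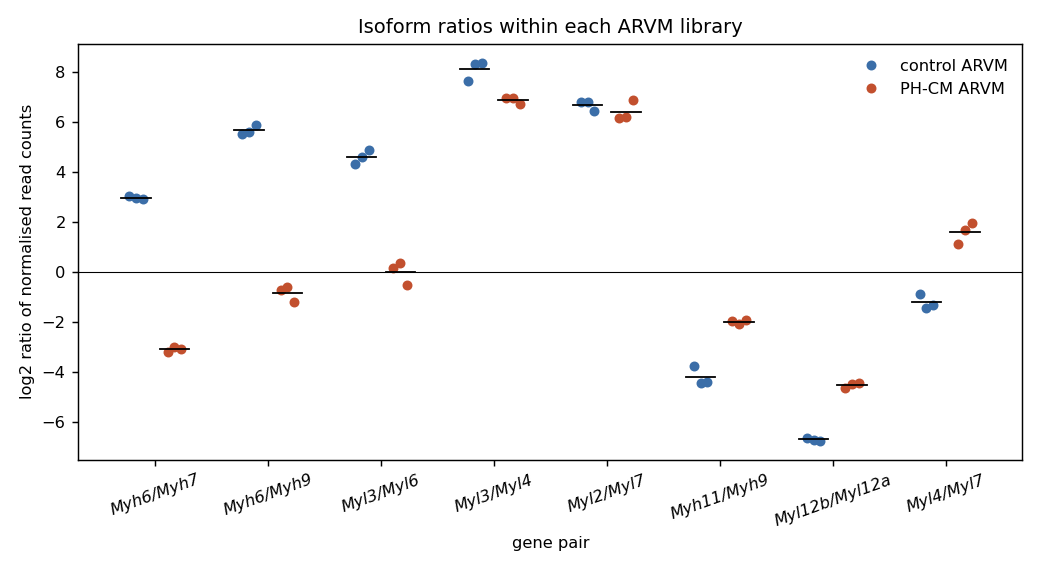
Log2 ratio of normalised read counts for 8 myosin gene pairs in each ARVM library, with a bar at the group mean and a line at equal counts. The ratio of Myh6 to Myh7 crosses that line, from a mean of 2.96 in control to −3.11 in PH-CM, and only Myl2 to Myl7 has overlapping groups.

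Other myosin genes give the setting of these changes. Of 8 other sarcomeric heavy chains, 4 were listed, 3 higher and 1 lower. Over all listed ARVM genes 53.9% were higher and 43.7% lower, which stands beside the counts of every ARVM list. The 3 heavy chains that were higher are skeletal chains that lie side by side with related chains on chromosome 10. Embryonic Myh3 had 9.50, 0 and 6.20 normalised counts in control and 25.7, 31.1 and 24.5 in PH-CM ARVM (limma adjusted p = 0.0130, 0.0553 at a pseudocount of 0.1). Fast skeletal Myh1 had no read in control and 34.8, 53.5 and 61.8 normalised counts in PH-CM, at least 42.2-fold higher against a floor of 3 reads over the group. Fast skeletal Myh4 had no read in control and 9 reads in all of PH-CM, at least 2.08-fold higher, and did not pass with DESeq2 (adjusted p = 0.208). These levels are low, and reads shared with near-identical neighbours such as Myh2 are uncertain. With no read in control, Myh1 and Myh4 could be listed only as higher.

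Myh7b, the slow-type heavy chain that hosts miR-499, fell from 638 ± 93.9 to 324 ± 56.7 normalised counts (SD, n = 3), with a log2 fold change of −0.98 (SE 0.16, limma adjusted p = 0.000743). Myh14, the heavy chain of non-muscle myosin IIC, fell from 4601 ± 110 to 1993 ± 274 (log2 fold change −1.22, SE 0.10, limma adjusted p = 1.40e-05). The listed non-muscle heavy chains thus had opposite directions, with Myh9 higher and Myh14 lower.

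Of 8 other light chains, 4 were listed, 3 higher and 1 lower. Myl6 rose from 7764 ± 687 to 15585 ± 1285 normalised counts (SD, n = 3; log2 fold change 1.01, SE 0.09, limma adjusted p = 2.19e-05). Myl12b rose from 458 ± 13.7 to 1210 ± 105 (log2 fold change 1.40), whereas Myl12a fell from 47917 ± 1002 to 27953 ± 572 (log2 fold change −0.78). Mylpf, the regulatory chain of fast skeletal muscle, had 1 read in control and 39 reads in PH-CM, a ratio of 27.0 after scaling, with an exact 95% counting interval of 4.56 to 1092.

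Thick filament partners that bind or space the myosin rods mostly fell with the cardiac chains. Of 10, 6 were listed, 4 lower, 1 higher and 1 short of the threshold, with a median log2 fold change of −2.22. Mybpc3, the cardiac myosin-binding protein C, fell from 81325 ± 2756 to 14963 ± 1215 normalised counts (SD, n = 3; log2 fold change −2.44, SE 0.09, limma adjusted p = 2.49e-07). The M-band proteins Myom1 and Myom2 had log2 fold changes of −1.99 and −2.47, and the fast skeletal Mybpc2 had 1.60. Mybpc1 had 19 reads in control and 2 in PH-CM, a ratio of 0.0728 with an exact 95% counting interval of 0.00822 to 0.302, and Mybph did not pass (0.30, limma adjusted p = 0.290; 0.0182 without a trend).

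Of 9 genes for the folding and turnover of myosin, 8 were listed, 6 lower and 2 higher, with a median log2 fold change of −0.86. The muscle chaperone Unc45b (−0.44) and the thick filament assembly factor Smyd1 (−1.45) were lower, and Unc45a, the general form of the chaperone, was higher (0.77). The ubiquitin ligases of the MuRF family fell, with Trim54 at −1.10, Trim55 at −0.84 and Trim63 at −0.91, whereas the ligase Fbxo32 rose (0.36). Smyd2 had −0.87. The call of Unc45b was lost with equal library totals (limma adjusted p = 0.893).

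Enzymes that act on the light chains went in both directions. Of 14 kinase and phosphatase genes, 9 were listed, 3 higher, 5 lower and 1 short of the threshold, with a median log2 fold change of −0.48. Mylk, the light chain kinase of smooth muscle and non-muscle cells, rose from 441 ± 48.6 to 1244 ± 196 normalised counts (SD, n = 3; log2 fold change 1.49, SE 0.13, limma adjusted p = 2.40e-05). Mylk3, the cardiac light chain kinase, fell from 13188 ± 892 to 5357 ± 443 (log2 fold change −1.30, SE 0.08, limma adjusted p = 3.67e-06). Dapk1 (1.22) and Rhoa (0.43) were higher, and Ppp1cb (−0.98), Ppp1r12b (−0.66), Rock2 (−0.48) and Dapk2 (−1.09) were lower. Ppp1r12a did not pass (0.10, limma adjusted p = 0.130). With equal library totals, 2 of the 5 lower calls were kept and Ppp1r12a passed (limma adjusted p = 0.000137), and without ha2 or ha209 Dapk2 was not past the threshold (limma adjusted p = 0.0575 and 0.0521).

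Of 17 transcription factors known at myosin genes, 4 were listed. Mef2a was higher (0.50), and Mef2d (−0.86), Sox6 (−0.74) and the thyroid hormone receptor Thrb (−0.37) were lower. The 3 lower calls were lost with an unequal-variance test and with equal library totals over the listed genes, where Thrb had 0.056 (limma adjusted p = 0.662).

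In Cfib, MYH11 was the 1 member listed and was higher in PH. It had a signal of 2.28, 2.21 and 1.28 in CO Cfib 1, 2 and 3 and of 4.48, 4.83 and 4.48 in PH Cfib 1, 2 and 3. CO 3 was the lowest library, and the PH libraries lay close together above all CO libraries. The groups did not overlap in 100% of the listed Cfib genes, so this separation was set by the selection. The mean rose 2.39-fold, from 1.92 ± 0.557 to 4.60 ± 0.197 (SD, n = 3), with a log2 fold change of 0.96 (SE 0.15, limma adjusted p = 0.00118), where 97.5% of the listed Cfib genes passed, 58.2% higher and 39.4% lower. Without CO 3 the log2 fold change was 0.79. MYH11 also passed with an unequal-variance test, which called 99.2% of the listed genes, and with the PH libraries averaged into 1 sample, which called 49.1%.

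The signal of MYH11 was low, and the smooth muscle markers listed beside it were 4 of 8, with ACTA2 (1.23), SMTN (0.56) and LMOD1 (0.49) higher and CNN1 (−0.68) lower. LMOD1 was not past the threshold after the median of ratios (limma adjusted p = 0.0931). The summed signal of the 4 was 117 to 155 in CO and 247 to 256 in PH Cfib. Of 7 pericyte markers, CSPG4 (1.30), RGS5 (1.77) and KCNJ8 (1.61) were listed and higher, with a summed signal of 3.01 to 5.07 in CO and 15.5 to 18.1 in PH. Their part in the MYH11 value was not tested. No other light or heavy chain gene of the lists used here was listed in Cfib, so the chosen isoform ratios could not be formed there. Among the regulators, DAPK3 had a log2 fold change of −0.27, MEF2A of 0.74 and UNC45A of −0.11, the last short of the threshold (limma adjusted p = 0.0696).

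**Figure D4:**
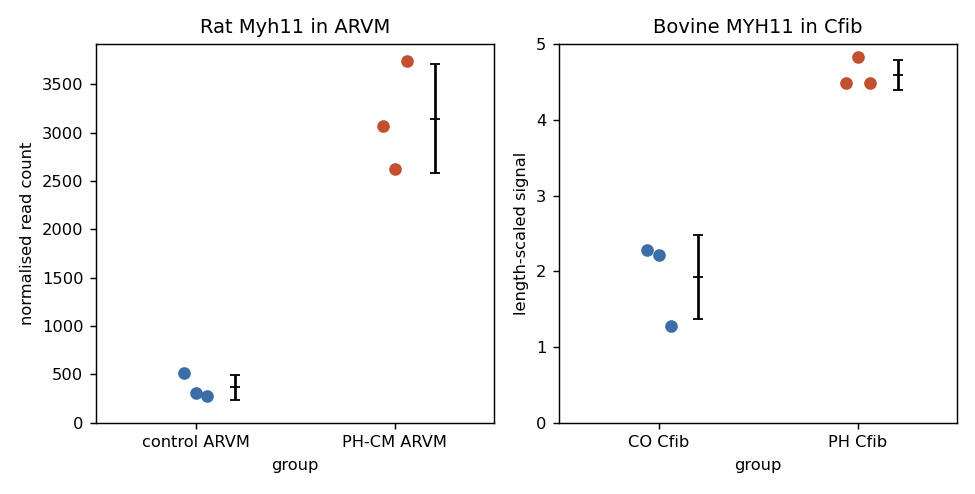
Level of the smooth muscle heavy chain gene in each library, with the mean and SD of 3, as normalised read counts of rat Myh11 in ARVM (left) and as length-scaled signal of bovine MYH11 in Cfib (right). Both panels show higher values in the PH-CM or PH group. The groups do not overlap, as in 100% of the listed genes of ARVM and of Cfib. The 2 axes carry different units that cannot be compared.

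Genes with the most similar pattern were found for each member by the Euclidean distance between log2 values, centred per gene, over the 6 libraries of a table. For Myh6 the nearest was Myl2 (distance 0.456), followed by Ckmt2 (0.476), the mitochondrial creatine kinase of muscle, and Acta1 (0.540), skeletal alpha-actin. Myl2 was nearest to Ckmt2 (0.261) and then to Myh6, and Myl7 was also nearest to Ckmt2 (0.557). Myl4, which fell less, was nearest to Klhl41 (0.217). For the members that rose, the nearest were Tgfbi (0.161) for Myh7, Osmr (0.0908) for Myh9, Cpq (0.229) for Myh11 and, in Cfib, DMD (0.102) for MYH11. These distances rest on 6 libraries of genes that had all been selected for the difference between the groups.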

How the data were processed

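Per the paper's methods, the authors depleted ribosomal RNA, aligned reads to rn6 (ARVM) or bosTau8 (Cfib) with HISAT2 and StringTie, and normalized counts with DESeq2. They considered genes above a minimum expression value in a condition and kept those with a p-value under 0.05. For this p-value the paper names a nonparametric t-test with unequal variance. Versions, strandedness and the treatment of shared reads are not given in the sources used here. The deposited ARVM signal holds counts of reads over the size factor of each library (0.632 to 1.32). In it, 100% of values lay within 0.01 reads of whole reads, which were recovered. The smallest value of ha211 was 2 reads. The deposited Cfib signal is scaled by gene length and library, and whether it is FPKM or TPM was not settled.

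Within each table, log2(value + 1) was compared between groups in limma 3.58.1 under R 4.3.3 (eBayes, trend allowed), and p-values were adjusted by Benjamini-Hochberg across all listed genes (threshold 0.05). The log2(value + 1) scale understates changes of low values. The quasi-likelihood test of edgeR 4.0.16 (TMM), run on the recovered reads, called 6815 genes and DESeq2 1.42.0 called 6668. Ratios were tested by going through every split of the libraries into groups, and counting intervals were computed with scipy 1.17.1. Intervals and floors (3 reads) cover counting error only. Only the fits of limma, edgeR and DESeq2 were tested on simulated data, in which few genes changed, unlike the listed genes. Named are all members, every listed gene of the lists for myosin genes, partners and regulators, some markers, and genes nearest to a member, of which those of Myl3 are not reported here. Members and lists were chosen with earlier results of these data known. Alternatives covered pseudocount, a minimum mean, scaling, test and left-out libraries. Transcript lengths and protein sequences were not used here.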

Additional observations from a re-analysis of the deposited data

How the results depend on the processing

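All 8 ARVM members stayed past the threshold with the same direction under each of 16 alternatives, and the largest adjusted p was 0.0476 (Myh7, unequal-variance test). Where 1 library was left out, the selection of listed genes had already fixed the direction. Equal library totals over the listed genes shifted the median log2 fold change of all genes by 0.42. They gave 5598 calls, 4010 higher and 1588 lower, against 6882 (3802 and 3080), with log2 fold changes of −5.15 for Myh6 and 0.92 for Myh7. Thrb was reversed there (0.056). MYH11 in Cfib stayed past the threshold under the 13 alternatives that tested it, from 0.29 at a pseudocount of 10 to 1.26 at 0.1. A minimum mean of 5 removed it, which left 0 members because it was no longer tested. The median of ratios shifted the Cfib log2 fold changes by −0.27 and gave 1708 calls, 839 higher and 869 lower, with 0.74 for MYH11. Averaging the PH libraries into 1 sample gave 1038 calls, with an adjusted p of 0.0491 for MYH11 (limma). Over the alternatives, the exact permutation p of Myl3 to Myl4 ran from 0.1 to 0.2 and that of Myl2 to Myl7 from 0.2 to 0.7.

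Whether equal replicate numbers pair the Cfib libraries was not settled. The deviations of same-numbered libraries had correlations of 0.258, 0.0312 and 0.259. Those of the other pairs ran from −0.245 (CO 1 with PH 3) to 0.102 (CO 2 with PH 1). CO 2 thus correlated better with PH 1 than with its own number. With the replicate block, 1983 genes passed instead of 2063, and MYH11 kept its log2 fold change (limma adjusted p = 0.00206). In ARVM no paired analysis was possible, because the groups share no replicate numbers. Depth limits Myh1, Myh3, Myh4, Mylpf and Mybpc1, which had few reads or none in 1 group.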
